A study of Mus musculus with 8 samples.

Results

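The 46 genes described here are immediate early genes and stress response genes. They were taken from a count table of 24047 gene rows from mouse cells sorted as astrocytes, by matching the gene symbol to a list of names. The list holds the genes known to respond to neural activity, to tissue dissociation and to heat or protein stress. All 46 were present in the table, 32 passed the filter on low counts and 14 did not. The 14 are given below as raw counts.

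The cells were sorted for red tdTomato fluorescence from the somatosensory cortex of mice between postnatal days 23 and 25. The 4 Ptch1cKO libraries came from animals with the alleles Glast-CreERT2, Ptch1fl/fl and Ai14. The 4 WT libraries came from animals with Glast-CreERT2 and Ai14 and without the floxed allele of the hedgehog receptor gene Ptch1. Both groups carried the Cre driver and the reporter, and tamoxifen was given on postnatal days 12 to 14 to switch on the recombinase. Glast is an astrocyte glutamate transporter whose promoter is also active in neural stem cells, and tdTomato marks every cell in which Cre acted together with its progeny. The labels do not say how many animals stand behind a library, so the p-values below measure only the spread between these libraries.

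Immediate early genes are transcribed within minutes of a stimulus, from transcription factors that are already present in the cell, and need no new protein synthesis. Many of them encode transcription factors, such as Fos and Egr1, and others encode phosphatases or RNA-binding proteins that shut the response off. In the brain they are used as markers of recent neuronal firing, astrocytes can induce them too, and the handling of living tissue during dissociation and sorting is known to induce them in many cell types. The heat shock response, driven by the factor Hsf1, raises protein-folding chaperones, and the unfolded protein response does so for the endoplasmic reticulum.

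The libraries held 4061274 to 7206462 counts, with 15175 to 17554 genes detected. Levels are given in CPM, counts scaled to the size of the library, or, between genes, in the authors' TPM, which also takes transcript length into account. Sequencing followed exome capture, so levels of different genes also depend on the probes. Ptch1 had 219, 249, 168 and 258 CPM in Ptch1cKO and 285, 227, 491 and 425 CPM in WT, counted over the whole gene. Its log2 fold change was -0.67 (SE 0.22), with an adjusted p of 0.349 by edgeR's quasi-likelihood test with Benjamini-Hochberg adjustment. All 12 astrocyte markers were counted, with a summed level of 12340 to 21030 TPM in Ptch1cKO and 15460 to 22100 TPM in WT. Markers of other cells were counted as well. The neuron marker Snap25 held 15546 to 25618 counts in a library, and the astrocyte marker Slc1a3 held 2806 to 9724. From which cell type the reads of a member came was not tested. The 12 neuron markers summed to 8757 to 10280 TPM in Ptch1cKO and 9891 to 12190 TPM in WT, and the 10 oligodendrocyte markers to 8640 to 11390 TPM in Ptch1cKO and 7108 to 14250 TPM in WT. The 12 microglia markers summed to 580 to 1458 TPM in Ptch1cKO and 514 to 999 TPM in WT, and no listed marker of these types was at 0 over all libraries. In these bulk libraries, fewer cells of a type and less RNA per cell cannot be told apart.

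Promoters are shown for Fos, Egr2, Ier5 and Per1, because Fos is the reference gene of the covariation described below and the others belong to the closest member pairs. Each run is the 250 bases before a transcription start in RefSeq on GRCm38.p6, 5' to 3' on the strand of the gene. Capitals mark a match to TGACG, the core of the cyclic AMP response element bound by Creb factors, or to its reverse complement CGTCA. They also mark the E-box CACGTG, the site of the clock factors, the TATA box TATAAA and the CArG box of serum response factor.
Fos: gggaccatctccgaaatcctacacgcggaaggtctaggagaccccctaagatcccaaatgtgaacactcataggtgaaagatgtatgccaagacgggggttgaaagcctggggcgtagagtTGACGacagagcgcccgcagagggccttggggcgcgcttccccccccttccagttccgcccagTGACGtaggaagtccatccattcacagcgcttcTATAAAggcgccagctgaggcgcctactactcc
Egr2: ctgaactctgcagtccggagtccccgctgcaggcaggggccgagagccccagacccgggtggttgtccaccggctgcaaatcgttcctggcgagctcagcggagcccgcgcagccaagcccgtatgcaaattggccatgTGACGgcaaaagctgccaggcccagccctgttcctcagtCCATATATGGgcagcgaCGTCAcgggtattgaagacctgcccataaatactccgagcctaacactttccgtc
Ier5: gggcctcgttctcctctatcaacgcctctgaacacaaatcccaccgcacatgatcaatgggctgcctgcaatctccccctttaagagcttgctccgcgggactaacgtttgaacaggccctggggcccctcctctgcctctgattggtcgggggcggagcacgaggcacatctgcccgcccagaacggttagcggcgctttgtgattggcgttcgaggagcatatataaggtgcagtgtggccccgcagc
Per1: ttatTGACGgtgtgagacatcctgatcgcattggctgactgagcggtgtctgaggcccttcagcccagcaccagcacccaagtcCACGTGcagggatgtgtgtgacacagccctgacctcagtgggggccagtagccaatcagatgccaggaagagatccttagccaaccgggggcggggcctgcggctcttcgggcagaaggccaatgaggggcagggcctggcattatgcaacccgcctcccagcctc
The Fos run is chr12:85473640-85473889 on the plus strand, with TGACG starting at -129 and -66 and TATAAA at -33, counted back from the last base before the transcription start at -1. The Egr2 run is chr10:67537619-67537868 on the plus strand, the third of 5 listed starts, with a CArG box CCATATATGG starting at -72, TGACG at -111 and CGTCA at -55. The Ier5 run is chr1:155099637-155099886 on the minus strand and held no match. The Per1 run is chr11:69098699-69098948 on the plus strand, the first of 2 starts, with TGACG starting at -246 and CACGTG at -166. A match is a description of letters, not a measured binding site.

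RefSeq starts were matched for 38 of the 46 members, 50 starts in all, and both strands were searched in the same 250 bases. TGACG occurred at 46% of the member starts, from 20 genes, and at 17.8% of all 32851 starts. The base composition of the member starts and of all starts was not compared. The full element TGACGTCA, which contains it, occurred at 4% of member starts and 1.55% of all starts. A CArG box occurred at 12% of member starts, from 3 genes, and 1.47% of all starts. The Egr site GCGGGGGCG stood at 14% of member starts and 2.57% of all starts, and CACGTG at 18% and 6.02%. For the AP-1 site TGACTCA the shares were 4% of member starts and 4.46% of all starts, and for TATAAA 12% and 12.4%. The ER stress response element, a CCAAT and a CCACG with 9 bases between them, was found at 1 member start, that of Hspa5, which encodes the main chaperone of the endoplasmic reticulum. It reads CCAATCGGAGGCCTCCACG there, at chr2:34772025-34772043 on the plus strand. The heat shock element of 3 alternating GAA and TTC units had no match at a member start and occurred at 0.466% of all starts.

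Chaperones led the members in abundance. Hspa8, the constitutive cytosolic Hsp70, had the highest mean level at 803 TPM over the 8 libraries, followed by Hspa5 at 290 TPM and the cytosolic Hsp90 gene Hsp90aa1 at 233 TPM. Egr1, a zinc finger transcription factor induced by growth factors and synaptic activity, was the highest immediate early gene at 146 TPM. Atf4, the translationally controlled factor of the integrated stress response, came next at 97.0 TPM, followed by Arc, a synaptic regulator of glutamate receptor uptake, at 89.97 TPM and the nuclear receptor Nr4a2 at 69.4 TPM. Fos averaged 5.51 TPM, below Egr1 and Arc. At the low end stood members that did not pass the count filter, and Ier2 held 1 read in all 8 libraries together.

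**Figure D1:**
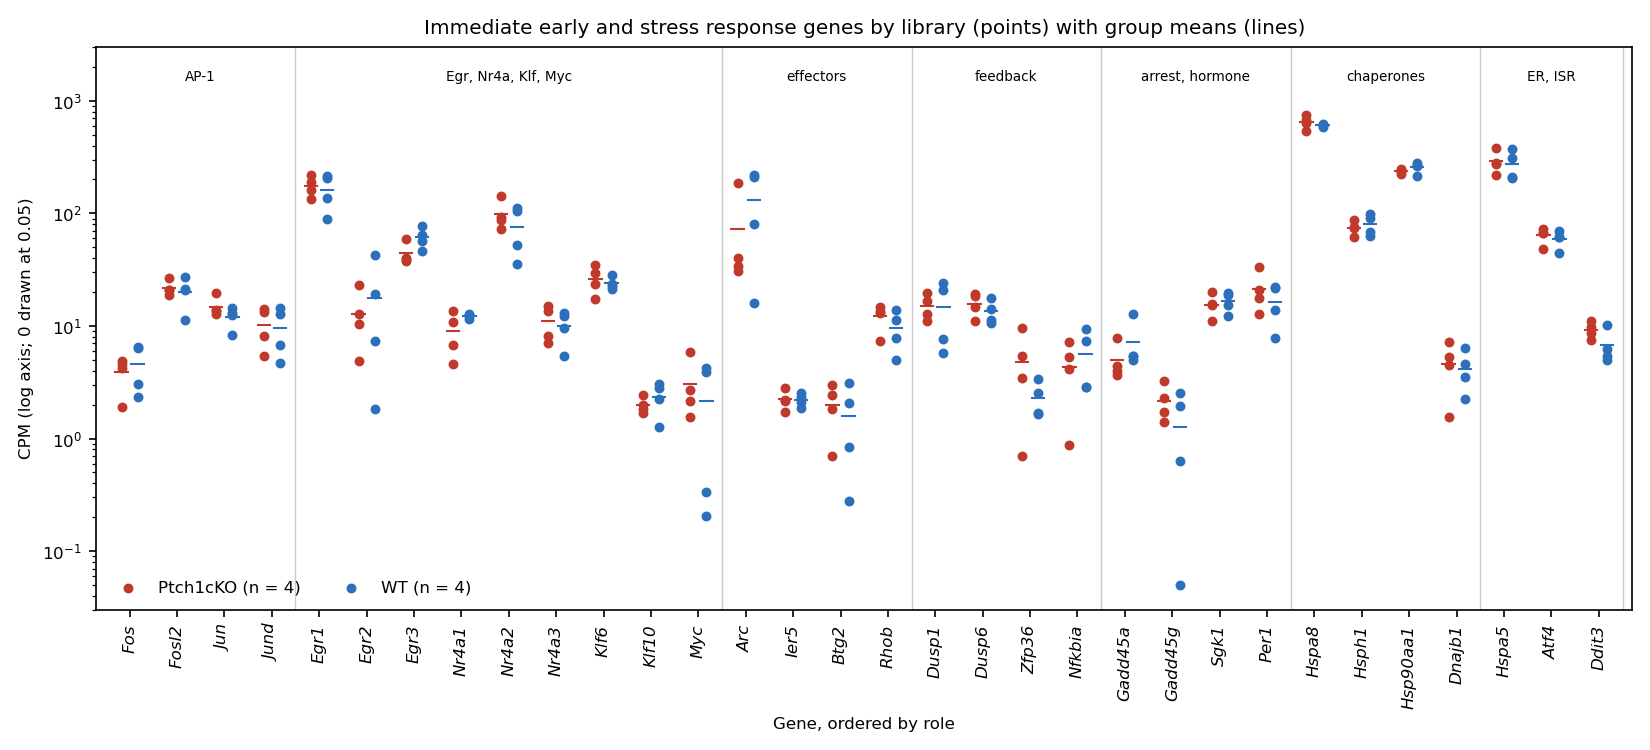
Level of the 32 tested members in each library, in CPM on a log axis, with points for libraries, lines for group means and a value of 0 drawn at the foot, and with Ptch1cKO in red on the left of WT in blue. Hspa8 lies between 538 and 744 CPM in all libraries, whereas Arc runs between 31.0 and 185 CPM in Ptch1cKO and between 16.1 and 217 CPM in WT.

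The comparison asks whether these genes differ in the sorted cells after Ptch1 deletion, and no member was called between the genotypes. At an adjusted p under 0.05 in edgeR's quasi-likelihood test with Benjamini-Hochberg adjustment, 0 of 32 tested members passed, where 0.1% of all 10954 tested genes did. An unadjusted p under 0.05 was reached by 1 of the 32, Egr3, where 9.34% of all genes reached it. In 0 of 32 members were the 4 Ptch1cKO libraries all above or all below the 4 WT libraries, where 5.02% of all genes were separated in this way. The log2 fold change was above 0 in 21 members and below 0 in 11, with a median of 0.10, and over all genes tested the median was -0.0019 and 49.6% were above 0. Without Ptch1cKO-3 the median over the members was -0.030.

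**Figure D2:**
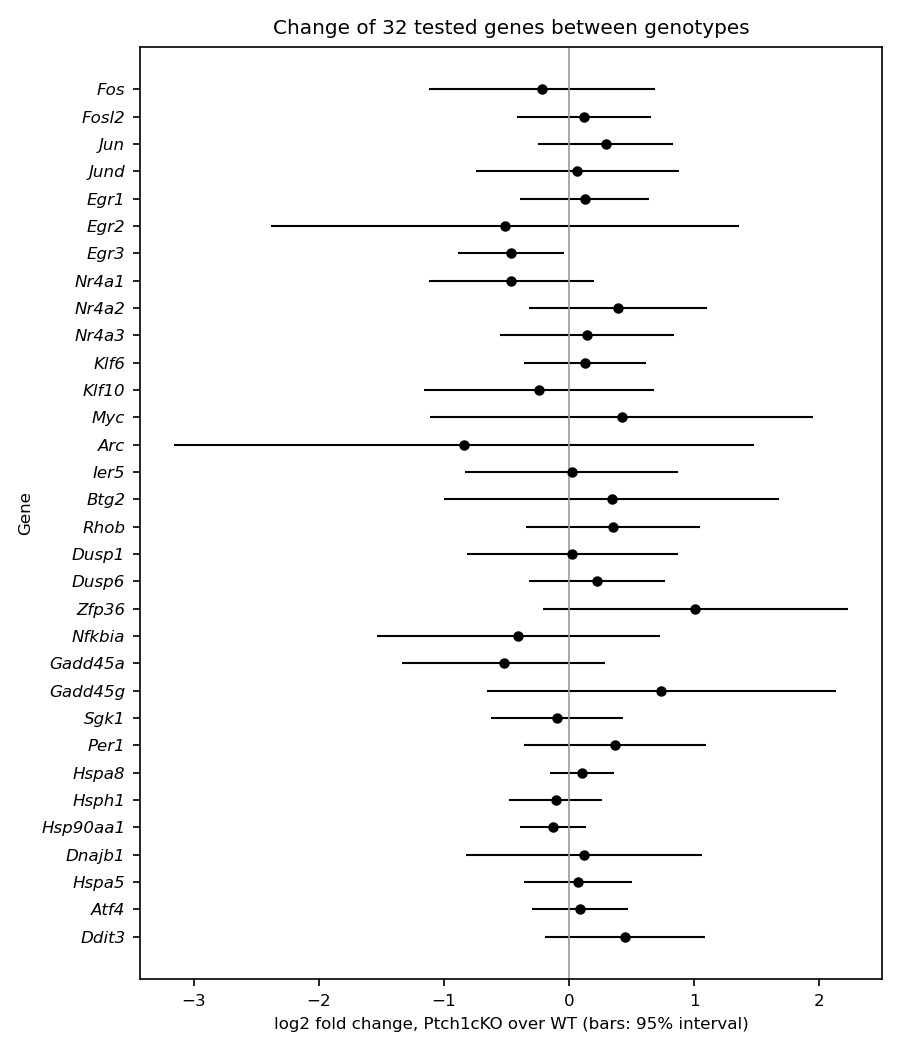
Log2 fold change of Ptch1cKO over WT for the 32 tested members, with 95% intervals computed from edgeR's F statistics. Zfp36 lies farthest to the right at 1.01 and Arc farthest to the left at -0.84, and the interval of Egr3 is the single one that does not cross 0.

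Among the AP-1 factors, which bind DNA as dimers of Fos and Jun family proteins, 4 of 7 were tested and 0 passed in either direction. Fos, at chr12:85473890-85477273, had 4.26, 1.91, 4.92 and 4.63 CPM in Ptch1cKO and 6.56, 2.36, 3.08 and 6.38 CPM in WT. Its group means were 3.93 ± 1.37 CPM in Ptch1cKO and 4.59 ± 2.19 CPM in WT (SD, n = 4 each), and the fold was 0.86 with a 95% interval of 0.459 to 1.61. Ptch1cKO-2 and WT-2 were the lowest of their groups, and the groups overlapped. Jun, the main partner of Fos, had 13.8, 12.7, 19.4 and 13.6 CPM in Ptch1cKO and 13, 12.4, 14.5 and 8.23 CPM in WT, a log2 fold change of 0.29 (SE 0.25). Fosl2, a Fos relative that is induced more slowly, averaged 21.8 ± 3.23 CPM in Ptch1cKO and 20.1 ± 6.53 CPM in WT (SD, n = 4 each). Jund, the Jun protein with the steadiest expression in most cells, ranged from 5.39 to 14.3 CPM in Ptch1cKO and from 4.74 to 14.4 CPM in WT.

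The Egr, Nr4a and Klf factors and Myc formed the largest role, with 13 members, of which 9 were tested and 0 passed in either direction. Egr3, a zinc finger factor induced by synaptic activity and located at chr14:70077203-70082614, had 59.8, 38.1, 39.1 and 40.5 CPM in Ptch1cKO and 77.2, 57.2, 64.2 and 46.5 CPM in WT. Ptch1cKO-1 and WT-1 were the highest of their groups, 3 Ptch1cKO libraries lay below every WT library, and Ptch1cKO-1 lay among the WT values. The fold was 0.725 with a 95% interval of 0.541 to 0.972, and edgeR's quasi-likelihood test gave an unadjusted p of 0.0336 and a Benjamini-Hochberg adjusted p of 0.488. Egr1 had 191, 133, 220 and 162 CPM in Ptch1cKO and 207, 214, 89.3 and 137 CPM in WT. Its fold was 1.09 with an interval of 0.764 to 1.56, and each group held both high and low libraries. Egr2, best known as a factor of peripheral myelination and hindbrain patterning, had 10.4, 4.87, 22.9 and 12.7 CPM in Ptch1cKO and 19.2, 42.9, 1.82 and 7.41 CPM in WT. Its highest and lowest libraries were both WT and differed 23.6-fold. Its log2 fold change of -0.51 (SE 0.82) was 0.41 without WT-2.

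The Nr4a genes encode orphan nuclear receptors that are induced by cyclic AMP and calcium. Nr4a2, at chr2:57106830-57124003, had 93.7, 71.9, 144 and 87.9 CPM in Ptch1cKO and 35.2, 111, 52.4 and 105 CPM in WT. The lowest libraries were WT-1 and WT-3, the highest was Ptch1cKO-3, and the log2 fold change was 0.39 (SE 0.33). It was 0.16 without Ptch1cKO-3 and 0.15 without WT-1. Nr4a1 had 10.9, 6.78, 13.5 and 4.63 CPM in Ptch1cKO and 12.4, 12.7, 11.5 and 12.4 CPM in WT. The WT libraries of Nr4a1 were close together at 12.2 ± 0.548 CPM, and the Ptch1cKO libraries spread to both sides at 8.97 ± 4.01 CPM (SD, n = 4 each). Nr4a3 ranged from 7.12 to 14.9 CPM in Ptch1cKO and from 5.45 to 13 CPM in WT. Klf6, a growth-regulating zinc finger factor, ranged from 17.2 to 34.9 CPM in Ptch1cKO and from 21.4 to 28.1 CPM in WT. Klf10, induced by TGF-beta, ranged from 1.70 to 2.43 CPM in Ptch1cKO and from 1.26 to 3.03 CPM in WT.

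Myc, the growth and proliferation factor, had 2.70, 1.56, 5.90 and 2.15 CPM in Ptch1cKO and 0.336, 4.24, 3.91 and 0.206 CPM in WT. The highest and lowest Myc values differed 28.7-fold. WT-2 and WT-3, the high pair, held 1148 and 612 counts of the female-specific transcript Xist, and the 6 other libraries held at most 4. In those 6 libraries Myc had a log2 fold change of 3.34, with an unadjusted p of 0.00204 and a Benjamini-Hochberg adjusted p of 0.367 by edgeR's quasi-likelihood test. That comparison rests on 2 WT libraries with 1 and 2 reads of Myc, and the part of the animals' sex in the pattern was not tested.

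Of the effectors and adaptors, 4 of 6 were tested and 0 passed in either direction. Arc, at chr15:74669083-74672570, had 185, 40.0, 31.0 and 34.2 CPM in Ptch1cKO and 209, 217, 16.1 and 81.1 CPM in WT. Ptch1cKO-1, WT-1 and WT-2 were high, and Ptch1cKO-2 to Ptch1cKO-4 and WT-3 were low. WT-1 and WT-2 share a prefix in the column names, as do WT-3 and WT-4, and Ptch1cKO-1 and Ptch1cKO-2, whose Arc levels were far apart. Its meaning was not given in the sources used here. Group means were 72.4 ± 74.9 CPM in Ptch1cKO and 131 ± 98.7 CPM in WT (SD, n = 4 each), and the fold was 0.558 with a 95% interval of 0.112 to 2.78. The log2 fold change of -0.84 was -1.90 without Ptch1cKO-1 and -0.48 without WT-2. Rhob, a growth factor-induced small GTPase, averaged 12.2 ± 3.34 CPM in Ptch1cKO and 9.53 ± 3.92 CPM in WT. Ier5, a cofactor of the heat shock factor Hsf1, averaged 2.24 ± 0.455 CPM in Ptch1cKO and 2.20 ± 0.291 CPM in WT (SD, n = 4 each). The antiproliferative transcript Btg2 averaged 1.99 CPM in Ptch1cKO and 1.58 CPM in WT.

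The feedback inhibitors end the response, and 4 of 6 were tested with 0 passing in either direction. Dusp1, a phosphatase that inactivates MAP kinases, had 12.8, 11.1, 19.7 and 16.7 CPM in Ptch1cKO and 20.9, 7.70, 24.2 and 5.76 CPM in WT. The WT libraries enclosed the Ptch1cKO values on both sides. Zfp36, which destabilises mRNAs of cytokines, had 5.40, 0.695, 9.59 and 3.47 CPM in Ptch1cKO and 1.68, 2.51, 3.35 and 1.65 CPM in WT. Ptch1cKO-2 was the lowest of all 8 libraries and the other 3 Ptch1cKO libraries lay above every WT library. The fold was 2.01 with an interval of 0.863 to 4.69, and edgeR's quasi-likelihood test gave a Benjamini-Hochberg adjusted p of 0.627. The Zfp36 log2 fold change of 1.01 was 1.38 without Ptch1cKO-2 and 0.47 without Ptch1cKO-3, with adjusted p-values of 0.356 and 0.912 by the same edgeR test. The summed microglia markers stood in the same order as Zfp36 over the Ptch1cKO libraries, but not over WT. They had 1099, 580, 1458 and 935 TPM in Ptch1cKO and 822, 999, 514 and 878 TPM in WT. Their correlation with Zfp36 over the 8 libraries is given with the marker relations below, and their part in its level was not tested. All 12 microglia markers had a log2 fold change above 0, with a median of 0.72. Nfkbia, the inhibitor of NF-kappaB, had 5.25, 0.869, 7.13 and 4.13 CPM in Ptch1cKO and 2.86, 9.43, 7.41 and 2.88 CPM in WT. Dusp6, a phosphatase specific for ERK, ranged from 11.1 to 19.0 CPM in Ptch1cKO and from 10.7 to 17.9 CPM in WT.

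In the group of growth arrest, hormone and clock genes, 4 of 5 were tested and 0 passed in either direction. Gadd45a, a DNA damage and growth arrest gene, had 4.40, 4.00, 3.69 and 7.77 CPM in Ptch1cKO and 5.38, 12.9, 5.45 and 4.94 CPM in WT. WT-2 stood well above the other WT libraries. Per1, a clock gene that is also induced by cyclic AMP and glucocorticoids, had 33.4, 12.7, 17.7 and 20.7 CPM in Ptch1cKO and 22.2, 21.5, 14 and 7.82 CPM in WT. The highest Per1 library was Ptch1cKO-1 and the lowest was WT-4. Sgk1, a glucocorticoid-induced kinase, ranged from 11.1 to 19.9 CPM in Ptch1cKO and from 12.2 to 19.5 CPM in WT. Gadd45g, a relative of Gadd45a, averaged 2.17 CPM in Ptch1cKO and 1.28 CPM in WT and had no read in WT-4, where a count of 0 allows up to 0.618 CPM.

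Of the heat shock chaperones, 4 of 6 were tested and 0 passed in either direction. Hspa8 had 538, 744, 676 and 633 CPM in Ptch1cKO and 607, 621, 609 and 579 CPM in WT. The WT libraries lay inside the Ptch1cKO range, and the fold was 1.07 with a 95% interval of 0.898 to 1.28. Hsp90aa1 had 234, 242, 221 and 249 CPM in Ptch1cKO and 266, 271, 215 and 282 CPM in WT, a fold of 0.916 with an interval of 0.763 to 1.10. WT-3 was the lowest library for Hsp90aa1 and the other WT libraries lay above every Ptch1cKO library. Hsph1, a nucleotide exchange factor for Hsp70, averaged 74.7 ± 10.0 CPM in Ptch1cKO and 80.3 ± 17 CPM in WT (SD, n = 4 each). Dnajb1, an inducible Hsp40 co-chaperone and a standard readout of Hsf1, had 5.25, 1.56, 7.13 and 4.46 CPM in Ptch1cKO and 6.39, 4.56, 3.49 and 2.26 CPM in WT. The lowest Dnajb1 value was Ptch1cKO-2 and the groups overlapped.

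All 3 genes of the endoplasmic reticulum and integrated stress responses were tested and 0 passed in either direction. Hspa5 had 282, 276, 221 and 378 CPM in Ptch1cKO and 374, 308, 212 and 208 CPM in WT, with a high and a low library on each side. Atf4 averaged 63.7 ± 10.4 CPM in Ptch1cKO and 59.7 ± 10.6 CPM in WT (SD, n = 4 each). Ddit3, the stress-induced factor CHOP that acts downstream of Atf4, had 9.80, 7.47, 11.1 and 8.59 CPM in Ptch1cKO and 10.3, 6.29, 5.45 and 4.94 CPM in WT. WT-1 was within the Ptch1cKO range and the other WT libraries lay below it. The Ddit3 log2 fold change was 0.45 (SE 0.30), with a Benjamini-Hochberg adjusted p of 0.685 by edgeR's quasi-likelihood test.

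The 14 members below the count filter include several of the standard induced genes, and their values are reads per library. Fosb, a Fos relative that accumulates with repeated activity, had 4, 3, 1 and 9 reads in Ptch1cKO and 3, 2, 2 and 6 reads in WT. Junb had 12, 1, 4 and 3 reads in Ptch1cKO and 1, 4, 1 and 0 in WT, so 12 of its 20 Ptch1cKO reads came from Ptch1cKO-1. The pooled ratio, scaled for depth, was 3.54 with a counting interval of 1.37 to 10.8, which covers counting error only. In edgeR's quasi-likelihood test without the filter, the Benjamini-Hochberg adjusted p of Junb was 0.588. An exon of Junb overlaps Prdx2 on the opposite strand, and how strand was treated in counting was not given in the sources used here. A similar overlap with an opposite-strand gene holds for 7 other members, among them Jun, Jund, Dusp1, Zfp36 and Gadd45a.

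Npas4, a factor induced selectively by neuronal activity, had 6, 4, 5 and 10 reads in Ptch1cKO and 8, 18, 8 and 14 in WT. Its pooled ratio was 0.553, with a counting interval of 0.327 to 0.915. Dusp5, a nuclear phosphatase for ERK, had 1, 2, 0 and 2 reads in Ptch1cKO and 1, 6, 5 and 9 in WT, a pooled ratio of 0.253 with a counting interval of 0.0745 to 0.689. Both counting intervals lie below 1, but they leave out the spread between libraries, and the adjusted p of edgeR's quasi-likelihood test without the filter was 0.669 for Npas4 and 0.540 for Dusp5. Atf3, a stress-induced repressor, had 4, 1, 3 and 0 reads in Ptch1cKO and 7, 2, 10 and 0 in WT. Egr4, an activity-induced relative of Egr1, held 19 reads in Ptch1cKO and 19 in WT, and the pluripotency factor Klf4 held 19 in Ptch1cKO and 9 in WT. Ier3, a survival gene, Socs3, an inhibitor of cytokine signalling, the growth arrest gene Gadd45b and Klf2, best known from endothelium, held between 1 and 8 reads in each group. The inducible Hsp70 genes were near 0, with 5 reads in Ptch1cKO and 1 in WT for Hspa1a, and 5 in Ptch1cKO and 9 in WT for Hspa1b. Their transcripts share most of their sequence, with 58.8% and 62.3% of the 50-base words of Hspa1a and Hspa1b found in the other, so reads can be split between them.

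The spread within a genotype is given as a description, with no test. Among the 20 members with a mean of at least 10 CPM, the median SD of log2(CPM + 1) within a group was 0.38, against 0.27 over all 6756 genes at that level. Arc had an SD of 1.48 and Egr2 of 1.34, at percentiles 99.9 and 99.8 of those genes. Nr4a2 stood at percentile 97.2 and Egr1 at percentile 90. Hspa8, with an SD of 0.14, stood at percentile 9.18, and Hsp90aa1, with 0.13, at percentile 7.09. Between them lay Hsph1 at percentile 46.3, Jun at 59.1, Egr3 at 60.9 and Hspa5 at 76.8, and Dusp1 at 98.2 and Per1 at 96.3 were near the variable end.

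**Figure D3:**
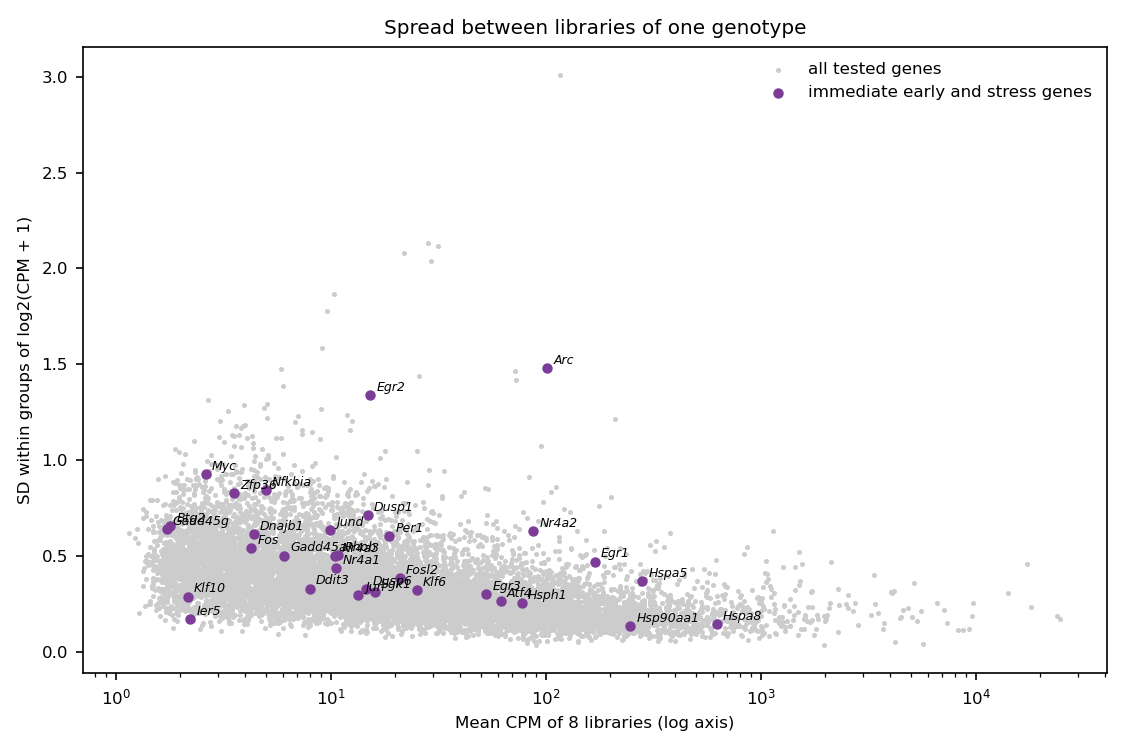
SD within groups of log2(CPM + 1) against the mean CPM of the 8 libraries on a log axis, with members drawn over all tested genes in grey. Arc at 1.48 and Egr2 at 1.34 lie far above most genes of like level, and Hspa8 at 0.14 and Hsp90aa1 at 0.13 lie below the middle.

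Single libraries differed in how often they held the extreme value. Ptch1cKO-3 was the highest library for 11 of 32 members (34.4%) and for 15.1% of all genes tested. Ptch1cKO-2, of the same genotype, was the lowest for 8 members (25%) and for 13.5% of all genes, and the highest for 1. WT-4 was the lowest for 9 members (28.1%) and for 16.6% of all genes, and WT-3 was the lowest for 8. Ptch1cKO-3 had the fewest counts and the lowest astrocyte and highest microglia marker sums of the 8 libraries, at 12340 TPM and 1458 TPM, and the part of these in its member levels was not tested.

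**Figure D4:**
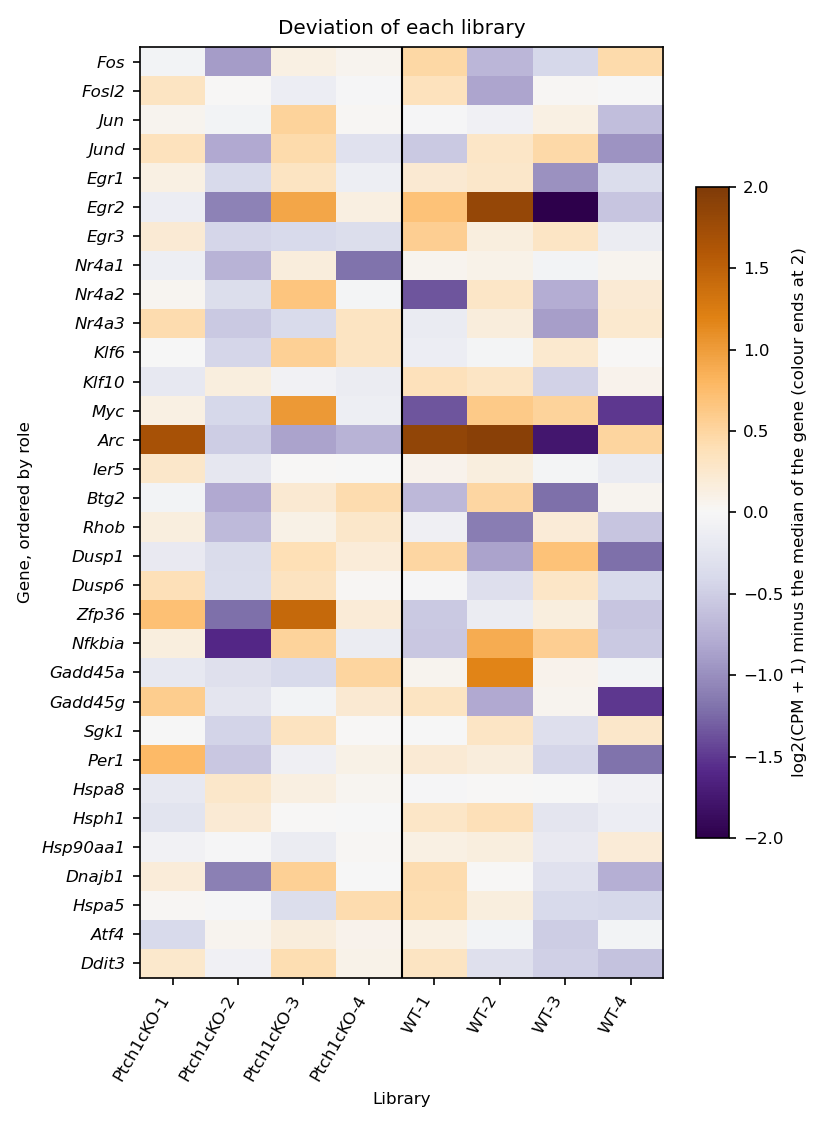
Level of each tested member in each library as the difference of log2(CPM + 1) from its median over the 8 libraries, with Ptch1cKO libraries on the left. Ptch1cKO-3 has the highest value in 11 of 32 members, and WT-4 has the lowest in 9.

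The members formed 496 pairs, whose correlations over the 8 libraries were computed on log2(CPM + 1). Their median Pearson r was 0.17, and 31 pairs (6.25%) had an r of at least 0.7. Over all pairs of tested genes the median was -0.001 and 3.37% reached 0.7. At -0.7 or below lay 4 member pairs (0.806%), and 3.26% of all pairs. The points share library depth and cell makeup, the members are not independent of each other, and all pairs were examined after single values had been seen.

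Egr1 and Egr2 were the closest pair by p, with a Pearson r of 0.934 (exact permutation p of 0.000422) and a Spearman rho of 0.952 (exact permutation p of 0.00114). Adjusted over the 496 pairs by Benjamini-Hochberg, these exact permutation p-values were 0.209 and 0.453. The r was 0.806 without Ptch1cKO-2 and WT-3 and 0.956 on deviations from the group means. Both genes were lowest in WT-3 among WT and in Ptch1cKO-2 among Ptch1cKO, and highest in WT-2 and Ptch1cKO-3. Ier5 and Per1 had an r of 0.889 and a rho of 0.929, with exact permutation p-values of 0.00427 and 0.00223 and an adjusted p of 0.455 for r. Without Ptch1cKO-1 and Ptch1cKO-2 their r was 0.888, and Ier5 rests on at most 20 reads in a library. Jund and Myc had an r of 0.879 and a rho of 0.857, and Jun and Dusp6 an r of 0.746 and a rho of 0.905. Jun and Hsp90aa1 ran in opposite directions, with an r of -0.791 and a rho of -0.905. Klf6 and Zfp36 had an r of 0.850 that was 0.423 without Ptch1cKO-2 and Ptch1cKO-3, so this relation rests on those libraries. No pair passed adjustment over the 496.

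**Figure D5:**
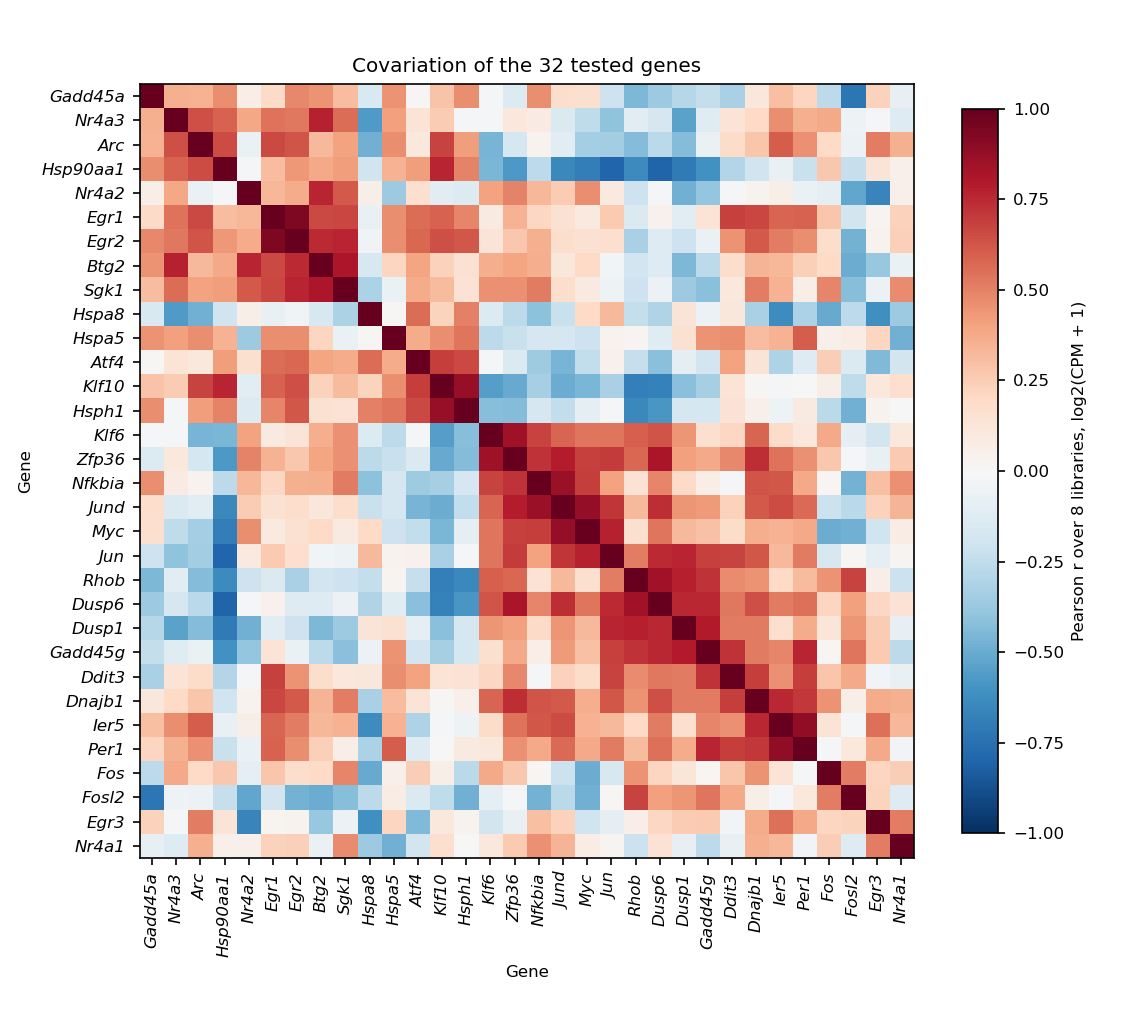
Pearson r over the 8 libraries between the 32 tested members, from log2(CPM + 1), with genes of like pattern placed side by side. Egr1 with Egr2 at 0.934 is among the strongest positive cells and Jun with Hsp90aa1 at -0.791 among the strongest negative ones.

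Fos and Dnajb1 were used as reference genes for the activity response and the heat shock response. With Fos, the other 31 members had a median r of 0.20, 23 were above 0 and 0 reached 0.7. Over all genes tested, the median r with Fos was 0.005, 50.5% were above 0 and 2.2% reached 0.7. Its highest member was Fosl2 at an r of 0.512 and its lowest Hspa8 at -0.505, neither past an exact permutation test adjusted over the 31. With Jun, its dimer partner, Fos had an r of -0.157 and a rho of 0.0476. Fos held 11 to 39 reads in a library, and the part of counting error in these correlations was not tested. With Dnajb1, the median r was 0.45, 29 of 31 members were above 0 and 3 (9.68%) reached 0.7. Over all genes tested, the median r with Dnajb1 was -0.015, 48.8% were above 0 and 6.24% reached 0.7. The 3 members were Ier5 at 0.750, Zfp36 at 0.736 and Per1 at 0.709. Without Ptch1cKO-2 and WT-4, farthest from the median of Dnajb1, the r was 0.208 for Ier5, 0.364 for Zfp36 and 0.309 for Per1. The relations of these 3 members therefore rest on those libraries. Ddit3 and Egr1 had an r of 0.691 and 0.669 with Dnajb1, and a rho of 0.81 and 0.857. Without the same libraries their r was 0.898 and 0.798. The exact permutation p of rho, adjusted over the 31, was 0.289 for both. For Ier5 the exact permutation p of 0.0315 was 0.348 after adjustment over the 31. Of the other heat shock chaperones tested, Hspa8 had an r of -0.322 with Dnajb1, Hsp90aa1 of -0.200 and Hsph1 of 0.0542.

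Each tested member was also set against astrocyte, microglia, neuron and oligodendrocyte marker levels, 128 relations chosen after values were seen. Marker level was taken as the mean log2(CPM + 1) of a list's tested genes, or as the log2 of its summed TPM, and none of the relations passed adjustment on either measure. Egr1 ran with the microglia markers at an r of 0.823 by the mean level and 0.837 by the sum. These were 0.575 and 0.616 without Ptch1cKO-3 and WT-3. Zfp36 had an r of 0.72 with the mean microglia level and of 0.69 with the microglia sum. Without the same libraries its r was 0.996 and 0.906. The exact permutation p of its r over all libraries was 0.0431 and 0.0556, and 0.552 and 0.587 after adjustment. Against the astrocyte sum, Egr1 had a rho of -0.976, with an exact permutation p of 0.000397 that became 0.0508 after adjustment over the 128, and an r of -0.785. Against the mean astrocyte level its rho was -0.69 and its r -0.682. The exact permutation p of that rho was 0.0694, and 0.634 after adjustment, so this relation depended on the measure. Sgk1 had an r of -0.856 with the mean astrocyte level and of -0.67 with the astrocyte sum. Its exact permutation p of 0.00756 for the mean level became 0.552 after adjustment, and without Ptch1cKO-3 and WT-2 its r with the sum was -0.306. Fos had an r of 0.758 with the mean neuron level and of 0.349 with the neuron sum, so its relation to neuron markers depended on the measure. For Arc, the r with the neuron markers was 0.200 by the mean level and 0.0652 by the sum.

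Related genes outside the 46 were examined in 8 lists. In them 0 genes of any list were called in either direction, where 0.1% of all 10954 tested genes were. Those named below are among the 3 with the smallest p in their list. Of 15 tested among 26 other immediate early genes, 4 had a log2 fold change above 0 and 11 below, with a median of -0.10. An unadjusted p under 0.05 by edgeR's quasi-likelihood test was reached by 1 of the 15 above 0 and 4 below. Over all genes tested, 9.34% reached it in either direction. In each other list, 0 to 2 genes reached it in a direction. Cyr61, a secreted matrix protein induced by Yap and growth factors, averaged 2.63 ± 1.12 CPM in Ptch1cKO and 6.15 ± 2.12 CPM in WT (SD, n = 4 each), and every Ptch1cKO library was below every WT library. Cyr61 was the 1 gene of the 15 whose groups did not overlap, where 5.02% of all genes did not. Its Benjamini-Hochberg adjusted p by edgeR's quasi-likelihood test was 0.373. Tob1, an antiproliferative relative of Btg2, averaged 26.3 ± 9.34 CPM in Ptch1cKO and 44.3 ± 8.45 CPM in WT. Sik1, a cyclic AMP-induced kinase, averaged 2.79 ± 1.01 CPM in Ptch1cKO and 5.81 ± 2.30 CPM in WT (SD, n = 4 each).

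Of 18 tested among 20 other heat shock genes, 9 were above 0 and 9 below. Hsf1, the factor that drives the response, averaged 35.2 ± 8.27 CPM in Ptch1cKO and 23.4 ± 5.46 CPM in WT, and its relative Hsf2 averaged 13.5 ± 4.61 CPM in Ptch1cKO and 24.1 ± 7.95 CPM in WT (SD, n = 4 each).

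In the unfolded protein response, 16 of 17 were tested, 5 above 0 and 11 below, with a median of -0.11. Pdia3, a disulfide isomerase, averaged 246 ± 17.6 CPM in Ptch1cKO and 312 ± 36.4 CPM in WT, and the stress sensor Atf6 averaged 41.6 ± 5.16 CPM in Ptch1cKO and 55.8 ± 3.86 CPM in WT (SD, n = 4 each). Neither gene's groups overlapped, which held for 2 of the 16 tested and for 5.02% of all genes. The adjusted p-values by edgeR's quasi-likelihood test with Benjamini-Hochberg adjustment were 0.418 for Pdia3 and 0.432 for Atf6. Of 11 tested integrated stress response genes, 4 were above 0 and 7 below, and the serine synthesis enzyme Psat1 averaged 289 ± 58.9 CPM in Ptch1cKO and 374 ± 98.6 CPM in WT. Slc3a2 was higher in Ptch1cKO, with 23.7 ± 3.06 CPM there and 17.1 ± 5.71 CPM in WT. The late targets of neuronal activity had 8 tested, 1 above 0 and 7 below, and Bdnf, a neurotrophin, averaged 3.32 ± 1.62 CPM in Ptch1cKO and 5.77 ± 4.77 CPM in WT (SD, n = 4 each).

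Of 9 tested glucocorticoid response genes, 6 were above 0 and 3 below. Zbtb16, a zinc finger target of the glucocorticoid receptor, averaged 24.6 ± 5.58 CPM in Ptch1cKO and 34.5 ± 7.52 CPM in WT (SD, n = 4 each). Cdkn1a was higher in Ptch1cKO, with 5.30 ± 0.967 CPM there and 4.15 ± 1.58 CPM in WT. The clock list, which borders on Per1, had 14 tested, 7 above 0 and 7 below. Arntl, the activator of the clock, had 18.0, 12.2, 13.3 and 24.1 CPM in Ptch1cKO and 25.9, 29.2, 31.7 and 38.9 CPM in WT. The groups did not overlap, which held for 1 of the 14 tested and for 5.02% of all genes. The Arntl log2 fold change was -0.89 (SE 0.24), with an adjusted p of 0.273 by edgeR's quasi-likelihood test with Benjamini-Hochberg adjustment. Hlf and Dbp were higher in Ptch1cKO, with log2 fold changes of 0.24 (SE 0.13) and 0.44 (SE 0.23). All 16 genes of the MAP kinase and serum response factor pathway were tested, 6 above 0 and 10 below. The ribosomal S6 kinase Rps6ka3, a target of ERK, averaged 159 ± 18.9 CPM in Ptch1cKO and 213 ± 29.2 CPM in WT (SD, n = 4 each), with a Benjamini-Hochberg adjusted p of 0.361 by edgeR.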

How the data were processed

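RNA of sorted cells was amplified as cDNA and enriched by exome capture, per the labels' protocols. STAR 2.5, bcl2fastq 2.18 and the build mm10 are named in the submitters' processing notes. What program counted the reads, on which annotation and with which strand option was not given in the sources used here. Deposited counts are whole reads per gene symbol, not normalized, and the deposited TPM values were computed by the authors.

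Tests used edgeR 4.0.16 in R 4.3.3 on the counts (filterByExpr with a minimum count of 10, TMM scaling, robust quasi-likelihood F test, genotype as the only term, all 8 libraries). Calls needed a Benjamini-Hochberg adjusted p under 0.05 over all 10954 genes tested. The filter passed 10954 of 20578 genes with a count, and 14 members that it removed are given as counts. The members and lists were chosen with earlier results of these data known. All 46 members could be named, and in each related list the 3 tested genes with the smallest p. 1 of the items that this rule takes is not reported here. The 5 genes outside the members with the highest r to Fos and to Dnajb1, with a mean of at least 10 CPM, were named as well, and Ptch1 as the targeted gene. The Xist counts, the comparison of all pairs and the marker relations were added after values were seen.

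Correlations over libraries used log2(CPM + 1) and two-sided exact permutation over pairings. Summed marker levels use TPM, and relations to markers were computed both with these sums and with the mean log2(CPM + 1) of the markers, the sums added after values were seen. CPM values and folds of members use TMM-scaled library sizes. Standard errors of log2 fold changes were computed as the absolute log2 fold change divided by the square root of edgeR's F statistic. The 95% intervals of folds use these standard errors and a t distribution with the total degrees of freedom of the test. Counting intervals are exact at 95%, and a count of 0 allows 3 counts, 0.419 to 0.738 CPM by library. Promoters come from RefSeq and gene positions from GENCODE on GRCm38, the same assembly as mm10. Positions were matched to 1 gene for 45 members.

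On simulated data with 10724 genes tested, edgeR found 12% of changed genes at 1.5-fold, 48% at 2-fold, 86% at 3-fold and 92% at 4-fold. Of 128 calls, 9 were false. The simulation changed 50 genes at each fold, drawn at random from the tested genes. It gave more calls than the 11 of the real data, so its cut-off on the unadjusted p was looser. The shares found may therefore be lower for these members. Libraries within a group differed by more than sampling noise, with a chi-square per degree of freedom of 11.4 to 23.6, so none was counted as a duplicate. The alternatives were another scaling, no filter, DESeq2 1.42.0, the replicate number as a block, leaving out each library and using only libraries with under 10 Xist counts.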

Additional observations from a re-analysis of the deposited data

Results flagged for a closer look

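In 64 sets of 4 values, 1 for each genotype of each tested member, the highest or lowest library was checked for its gap to the others, and 4 sets passed Dixon's critical value. Chance alone flags about 1 in 20 sets. Arc had 184.6 CPM in Ptch1cKO-1, and the other Ptch1cKO libraries had 31.0 to 40.0 CPM. Egr3 was 59.79 CPM in the same library, with 38.1 to 40.5 CPM in the other Ptch1cKO libraries. Jun was 19.43 CPM in Ptch1cKO-3, with 12.7 to 13.8 CPM in the others of its group. Gadd45a was 12.89 CPM in WT-2, with 4.94 to 5.45 CPM in the other WT libraries.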

How the results depend on the processing

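No member was called under any alternative, and the smallest member adjusted p by edgeR or DESeq2 lay between 0.355 and 0.745. Genes called over the whole table numbered 11 here, 199 without the filter, 79 with DESeq2, 3 in the libraries with under 10 Xist counts and 1 to 19 with 1 library left out. Members with an unadjusted p under 0.05 numbered 2 of 46 without the filter (Egr3 and Zfp36), where 9.79% of all genes reached it. With 1 library left out they numbered 0 to 1, where 6.83% to 9.54% of all genes reached it. Members whose groups did not overlap numbered 3 in the libraries with under 10 Xist counts and 0 to 2 with 1 library left out. Both have fewer samples than here, so groups separate more easily by chance, and the share over all genes was not computed for them. The median member log2 fold change ranged from -0.030 to 0.14 with 1 library left out. The median r with Fos ranged from -0.0479 to 0.318 with 1 library left out, lowest without Ptch1cKO-2, and that with Dnajb1 from 0.379 to 0.517. On the TPM scale the median r with Dnajb1 was 0.383, and the cause was not tested.

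Of 416 recomputed member values, 34 had the other direction, in 17 members, none past the threshold. In the libraries with under 10 Xist counts the log2 fold change was -0.14 for Fosl2, -0.026 for Nr4a3, 0.58 for Nfkbia, -0.0085 for Hspa5 and -0.058 for Atf4. With 1 library left out it ranged from -0.44 to 0.019 for Fos, -0.079 to 0.29 for Fosl2, -0.15 to 0.32 for Jund, -0.078 to 0.29 for Egr1, -0.94 to 0.41 for Egr2, -0.070 to 0.31 for Nr4a3, -0.030 to 0.29 for Klf6 and -0.058 to 0.93 for Myc. It ranged from -0.12 to 0.13 for Ier5, -0.031 to 0.96 for Btg2, -0.23 to 0.38 for Dusp1, -0.23 to 0.038 for Sgk1, -0.21 to 0.0049 for Hsph1, -0.15 to 0.41 for Dnajb1, -0.086 to 0.25 for Hspa5 and -0.027 to 0.20 for Atf4. The cause was not tested.

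The titles number the mutants 1 to 4, the descriptions 1, 2, 4 and 5, and the pairing was checked with the titles alone. These numbers did not pair the samples, since libraries of the same number had correlated deviations of -0.183 to 0.0245 and no library correlated best with its own number. With the number as a replicate block, 0 members were called, 1 had an unadjusted p under 0.05, the median member log2 fold change was 0.0948 and 5 genes were called over the table. The design has 4 libraries per genotype, and in simulation changes of 1.5-fold were mostly missed, so a member that was not called may still differ. Fos, with 11 to 39 reads in a library, Dnajb1 and Ier5 rest on few reads.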

Other observations

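Among genes of at least 10 CPM, those nearest to Fos over the 8 libraries were Cpeb3, a translational repressor at synapses, with an r of 0.957, Sybu, an adaptor of axonal transport, with 0.937, Tubgcp3, a microtubule nucleation factor, with 0.925, and Bbs2, a cilium transport protein, with 0.918. The row 1200014J11Rik had an r of 0.932. Those nearest to Dnajb1 were the ribosomal protein gene Rpl18 with an r of 0.976, the channel gene Panx2 with 0.968, the focal adhesion gene Tgfb1i1 with 0.957, Spryd7 with 0.956 and the Mediator subunit gene Med16 with 0.949. They were picked as the highest of all genes over 8 libraries, so the values are a description with no test.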
